A study of Homo sapiens with 12 samples.

Results

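The genes that write, read and erase marks on chromatin are often mutated in B cell lymphoma, and 52 of them were followed here in TMD8 cells in which IRF4 was lowered. The 52 genes were taken by name from the deposited table of 26318 genes, and all 52 passed the filter on low counts. They comprise 11 polycomb genes, 10 histone methyltransferases, 6 histone demethylases, 14 genes of histone acetylation, 5 genes of DNA methylation and 6 subunits of the SWI/SNF remodelling complex. TMD8 is a human line of activated B cell lymphoma, an aggressive tumour that depends on the transcription factor IRF4. Polyadenylated RNA was read in 6 libraries from cells given a short hairpin RNA against IRF4 (IRF4 shRNA) and in 6 from cells given a scramble shRNA (control). Cell pellets of both groups were taken at 24 h, and no other genotype or treatment is given. The sources used here name neither the promoter of the hairpins nor their sequences. They do not say that cultures were separate, so p-values measure a spread between libraries that may be technical.

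Methylation of the histone tail by polycomb complexes keeps genes silent, and EZH2, the catalytic subunit that does this in proliferating cells, is mutated in germinal centre lymphoma. The KMT2 and SETD1 enzymes methylate another lysine of the same tail at promoters and enhancers, the KDM enzymes remove such methyl groups, and the acetyltransferases CREBBP and EP300 are opposed by histone deacetylases (HDACs). DNMT3 enzymes add methyl groups to DNA, TET enzymes oxidise them, and SWI/SNF complexes move nucleosomes with the ATPases SMARCA2 and SMARCA4. Loss of KMT2D or CREBBP, of TET2 and of ARID1A recurs in lymphomas of mature B cells.

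Library names hold a number 1 or 2 of unstated meaning, and the libraries that share it, 3 with IRF4 shRNA and 3 controls each, are called series 1 and series 2. Depth was 31.3 to 38.2 M counts per library (M, 1e6), at which 3 counts correspond to 0.0762 to 0.0980 CPM, or counts per 1e6 counts, a limit that covers counting error only. IRF4 had 507 to 716 CPM in IRF4 shRNA libraries and 1427 to 1571 CPM in controls, a difference of -1.29 in log2 CPM (exact two-sided permutation test, p = 0.00216, the smallest that 6 against 6 libraries can give). IRF4 stood at 34.7% of control in series 1 and at 47.9% in series 2. The B cell genes MS4A1, CD79A, CD79B and PAX5 were at 540.5 CPM or more in every library, while CD3E, CD14, LYZ, CSF1R, HBA1, EPCAM and KRT8 reached at most 0.540 CPM. Of the fibroblast genes, COL1A1 stood at 4.17 to 6.19 CPM in IRF4 shRNA libraries and 3.67 to 4.997 CPM in controls, and COL1A2 at 0.544 to 1.16 CPM in IRF4 shRNA libraries and 0 to 0.191 CPM in controls. Their part in the results was not tested. Libraries also differed in how their counts followed the GC content of transcripts. A library's deviation was taken from the mean of its own group, so these values do not compare the groups with each other. The rank correlation of a library's deviation with GC across genes was 0.24 to 0.33 in IRF4 shRNA libraries of series 1, -0.35 to -0.21 in those of series 2, -0.53 to -0.05 in control replicates 1 to 4, and 0.44 and 0.62 in control replicates 5 and 6.

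Promoter windows of the chromatin genes were read from RefSeq (GRCh38.p14) and searched for elements of IRF factors, the DNA-binding family to which IRF4 belongs, and of E2F factors. Of the 52 genes 45 had a window of 250 bases before to 50 after the start, and 33 of these windows began within 500 bases of the gene's first base in the deposited table. Shown are DNMT3A, HDAC1, JARID2, KDM2B and SMARCB1, which kept their call in every alternative analysis, and EZH1, for its motif. Each runs on the gene's own strand up to the base before the deposited gene begins, with motif matches in capitals. HDAC4, HDAC9 and TET3, which moved most, are not shown, since their RefSeq starts lie 126873, 408800 and -1494 bases from the first base of the deposited gene.
DNMT3A (chr2:25342591-25342733, minus strand): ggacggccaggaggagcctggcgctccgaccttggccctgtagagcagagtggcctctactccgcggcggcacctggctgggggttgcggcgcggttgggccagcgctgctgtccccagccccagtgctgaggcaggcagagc
HDAC1 (chr1:32291833-32292082, plus strand): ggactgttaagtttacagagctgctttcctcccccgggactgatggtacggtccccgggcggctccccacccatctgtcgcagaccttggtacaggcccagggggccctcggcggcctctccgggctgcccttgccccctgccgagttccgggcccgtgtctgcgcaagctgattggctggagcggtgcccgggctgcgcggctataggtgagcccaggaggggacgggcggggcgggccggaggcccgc
JARID2 (chr6:15245819-15246068, plus strand): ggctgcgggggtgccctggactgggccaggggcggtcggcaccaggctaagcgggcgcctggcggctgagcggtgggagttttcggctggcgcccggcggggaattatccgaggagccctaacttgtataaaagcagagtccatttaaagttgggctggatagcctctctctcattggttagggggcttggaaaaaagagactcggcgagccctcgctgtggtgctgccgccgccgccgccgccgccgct
KDM2B (chr12:121581024-121581273, minus strand): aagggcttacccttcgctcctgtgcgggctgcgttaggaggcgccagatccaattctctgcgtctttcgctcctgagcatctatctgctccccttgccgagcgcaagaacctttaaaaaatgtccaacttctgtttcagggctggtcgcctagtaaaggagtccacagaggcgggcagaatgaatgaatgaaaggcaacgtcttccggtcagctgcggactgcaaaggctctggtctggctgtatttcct
SMARCB1 (chr22:23786716-23786930, plus strand): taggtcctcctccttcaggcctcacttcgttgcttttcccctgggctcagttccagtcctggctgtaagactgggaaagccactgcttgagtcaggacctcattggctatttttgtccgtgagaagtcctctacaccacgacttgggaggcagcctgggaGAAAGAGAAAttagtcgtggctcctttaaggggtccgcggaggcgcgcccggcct
EZH1 (chr17:42745050-42745290, minus strand): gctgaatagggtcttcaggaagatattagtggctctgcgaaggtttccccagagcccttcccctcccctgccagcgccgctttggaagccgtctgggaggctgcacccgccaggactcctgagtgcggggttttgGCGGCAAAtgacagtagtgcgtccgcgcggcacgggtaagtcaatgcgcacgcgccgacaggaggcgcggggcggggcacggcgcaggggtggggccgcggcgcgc
Capitals in the SMARCB1 window mark a match to the element of interferon regulatory factors, GAAA, any 2 bases and GAAA again, at bases -90 to -81 from the RefSeq start. It was the only match to that element in 45 windows (2.22%), against 3.23% of the 10294 windows of all tested genes. The composite of an ETS and an IRF element, GGAA, any 2 bases and GAAA, matched 0 of 45 windows and 2.76% of all. Composites of an AP-1 and an IRF element, TGANTCA with GAAA either 4 bases after it or directly before it, matched 0 of 45 windows and 0.107% of all. Capitals in the EZH1 window mark TTTGCCGC on the opposite strand, an element of the cell cycle factor E2F. The 4 E2F variants TTTCCCGC, TTTGGCGC, TTTGCCGC and TTTCGCGC matched 4 of 45 windows (8.89%), those of EZH1, EZH2, NSD2 and SUZ12, against 5.47% of all. Both strands were searched, windows can hold overlapping motifs, and a match is a stretch of letters, not a bound site.

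Of the 52 chromatin genes, 27 (51.9%) differed between IRF4 shRNA and control libraries at an adjusted p under 0.05 in edgeR's quasi-likelihood test, 13 of them higher and 14 lower. Of all 16437 genes tested 48.2% were called, 24.2% higher and 23.9% lower, so the chromatin genes were called about as often as the transcriptome. Their changes were small. The median absolute log2 fold change was 0.13 over the 52 genes and 0.22 over all genes, and 3 genes, HDAC4, HDAC9 and TET3, were called with a change of at least 1.5-fold (5.77%, against 18% of all genes). In 11 genes (21.2%) the libraries of the groups did not overlap, against 30.8% of all genes. Scaled by library size alone, without TMM normalization (trimmed mean of M values), the split was 21 higher and 8 lower, and the all-gene median moved to 0.07, against -0.01 with TMM.

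**Figure D1:**
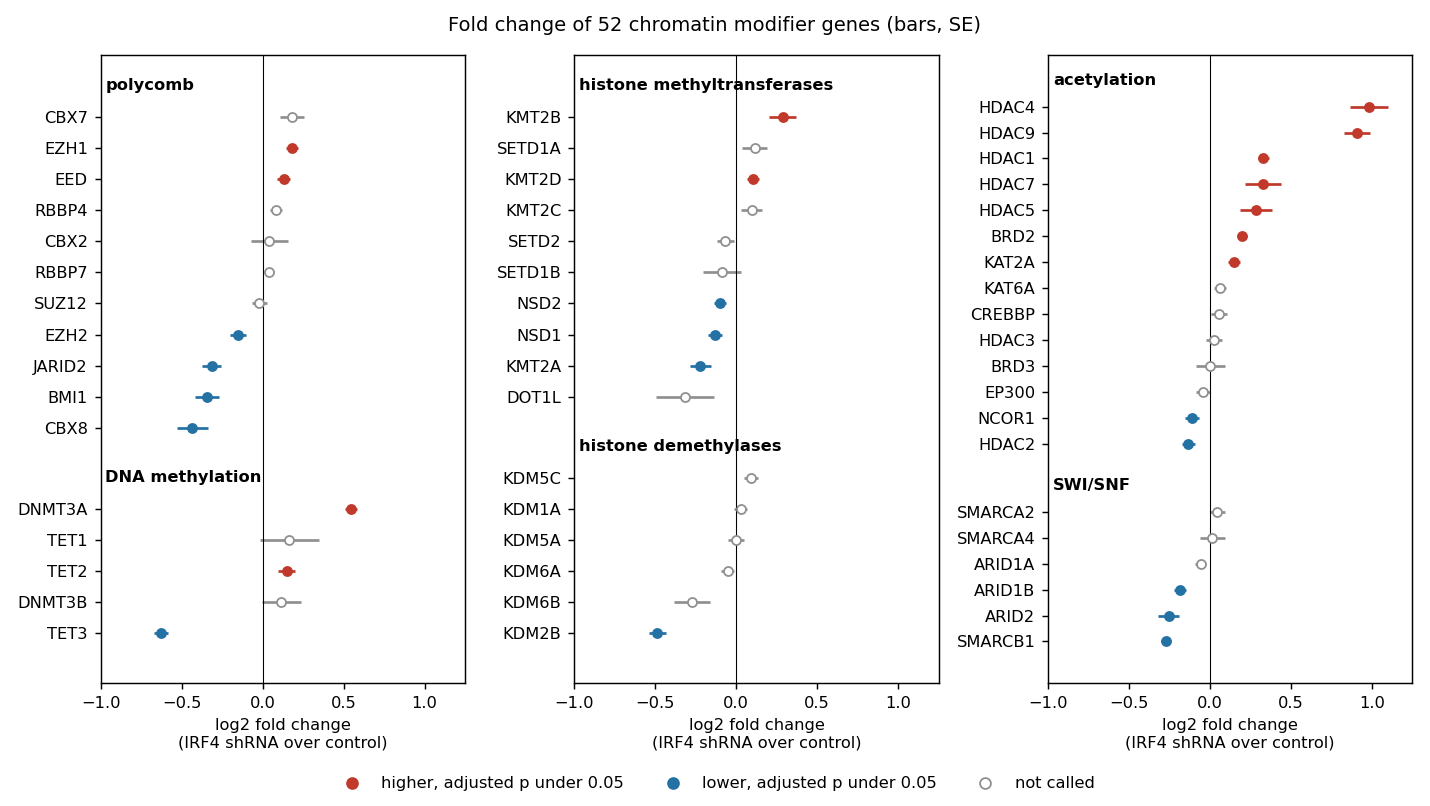
Log2 fold change of each chromatin gene, IRF4 shRNA over control, by family; points are edgeR estimates from 6 against 6 libraries, bars are standard errors, and filled points have an adjusted p under 0.05. HDAC4 (0.98), HDAC9 (0.91) and DNMT3A (0.55) lie farthest to the right and TET3 (-0.63) farthest to the left, while most genes lie within 0.5 of 0.

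Per kilobase of exon, the genes spanned a wide range of levels. BRD2 was the highest at 41.0 ± 1.24 CPM per kb in IRF4 shRNA libraries and 35.7 ± 1.11 in controls (SD, n = 6 each), followed by KAT2A at 28.2 ± 1.39 and 25.5 ± 0.758. TET1 was the lowest at 0.120 ± 0.0317 CPM per kb in IRF4 shRNA libraries and 0.107 ± 0.0118 in controls. HDAC9, HDAC4 and DNMT3B came next in controls, at levels several times that of TET1. HDAC9 stood at 0.979 ± 0.0813 CPM per kb in IRF4 shRNA libraries and 0.522 ± 0.0603 in controls. HDAC4 stood at 1.04 ± 0.143 CPM per kb in IRF4 shRNA libraries and 0.523 ± 0.0887 in controls. DNMT3B stood at 0.573 ± 0.0544 CPM per kb in IRF4 shRNA libraries and 0.529 ± 0.0889 in controls. In controls these 3 genes differed by less than their spread, and in IRF4 shRNA libraries DNMT3B was below the other two. EP300, EZH2, SETD2 and KMT2D were among the 10 genes with the highest level per kilobase in controls.

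Acetylation, the largest family, held the most calls in 1 direction, with 7 of 14 genes higher, 2 lower and 5 not called. For comparison with this and each family below, 24.2% of all genes were called higher and 23.9% lower with TMM. The acetylation split was 9 higher and 0 lower with library size alone. In that setting 8225 of 16437 genes were called, 63.9% of them higher. With the replicate number as a block the split was 5 higher and 1 lower, and 6942 genes were called, 51.4% of them higher. The class IIa deacetylases, which shuttle between cytoplasm and nucleus and repress MEF2 target genes, were all 4 higher. HDAC4 (chr2:239048168-239401654, minus strand) had 11.7 to 15.8 CPM with a median of 13.9 in IRF4 shRNA libraries, against 5.13 to 8.45 CPM with a median of 7.25 in controls. The lowest IRF4 shRNA library stood well above the highest control, though bulk RNA cannot tell a higher level in every cell from a higher level in some of them. Its log2 fold change was 0.98 ± 0.12 (SE, as for all fold changes), 1.97-fold, with an adjusted p of 6.33e-06 (edgeR). HDAC9 (chr7:18086949-19002416, plus strand) had 14.6 to 18.2 CPM with a median of 16.5 in IRF4 shRNA libraries, against 7.42 to 10.4 CPM with a median of 8.74 in controls, again with no overlap, a log2 fold change of 0.91 ± 0.08 and an adjusted p of 2.60e-07 (edgeR). HDAC9 is of interest in B cells because its overexpression gives B cell tumours in mice.

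The other pair of class IIa genes moved less and overlapped. HDAC7, which represses myeloid genes in B cell precursors of mice, had 41.3 to 60.9 CPM with a median of 49.1 in IRF4 shRNA libraries and 35.1 to 46.5 CPM with a median of 38.8 in controls, with a log2 fold change of 0.33 ± 0.11 and an adjusted p of 0.0223. HDAC5 had 27.0 to 39.5 CPM with a median of 33.4 in IRF4 shRNA libraries and 21.7 to 32.4 CPM with a median of 26.8 in controls, with 0.28 ± 0.10 and 0.0301 in the same edgeR fit. The high libraries of both genes were the 3 of series 1, and in series 2 the log2 fold changes were 0.01 for HDAC5 and 0.00422 for HDAC7, neither of them called. Summed over the 4 genes, IRF4 shRNA libraries held 98.0 to 134 CPM and controls 74.9 to 96.5 CPM. HDAC7 shares its span with SLC48A1 on the opposite strand, which fell by 0.68 on the log2 scale, and since the counting of strand is not given, reads of overlapping genes cannot be told apart.

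Class I deacetylases split. HDAC1, a catalytic subunit of the SIN3, NuRD and CoREST corepressors, rose to 70.5 to 74.0 CPM with a median of 71.8 in IRF4 shRNA libraries, against 55.4 to 59.3 CPM with a median of 57.0 in controls. The groups did not overlap, the spread within each was small, and the log2 fold change was 0.33 ± 0.03 with an adjusted p of 5.16e-07 (edgeR). Its paralog HDAC2 went the other way, with 47.9 to 55.1 CPM with a median of 52.3 in IRF4 shRNA libraries and 54.1 to 60.7 CPM with a median of 57.1 in controls, a log2 fold change of -0.13 ± 0.04 and an adjusted p of 0.0169. HDAC3, the catalytic partner of the NCOR corepressors, was not called (0.02 ± 0.05). NCOR1 itself had 206 to 224 CPM with a median of 217 in IRF4 shRNA libraries and 211 to 249 CPM with a median of 237 in controls, and was called lower at -0.11 ± 0.04 with an adjusted p of 0.0459. It lost the call without any 1 of 10 libraries, all but control replicates 5 and 6 (0.0669 to 0.131). NCOR1 overlaps TTC19 and PIGL on the opposite strand (10.3% and 2.85% as many counts), which were called lower at -0.19 and -0.22. Their part in the NCOR1 value was not tested. The call of HDAC2 was lost without IRF4 shRNA replicate 1, 3, 4 or 6 (0.0504 to 0.0766), without control replicates 5 and 6 (0.0503) and with the GC trend of each library removed (0.0989).

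Of the acetyltransferases, KAT2A, the catalytic subunit of the SAGA complex, rose, with 96.2 to 111 CPM with a median of 109 in IRF4 shRNA libraries, against 93.2 to 101 CPM with a median of 95.2 in controls (0.15 ± 0.04, adjusted p = 0.00460, edgeR). Only IRF4 shRNA replicate 4, at 96.2 CPM, lay among the controls. CREBBP had 167 to 193 CPM with a median of 179.6 in IRF4 shRNA libraries and 161 to 187 CPM with a median of 172 in controls. EP300 had 271 to 299.8 CPM with a median of 279.5 in IRF4 shRNA libraries and 262 to 306 CPM with a median of 299 in controls. Both overlapped widely and neither was called (0.06 ± 0.05 and -0.04 ± 0.04), nor was KAT6A (0.06 ± 0.04). Within series 1 CREBBP was called higher (0.15, adjusted p = 0.0125, edgeR) and EP300 lower (-0.15, 0.00281), and both had the opposite sign in series 2. Without control replicates 5 and 6 EP300 was called lower at -0.10 (0.0219). The bromodomain reader BRD2 rose to 293 to 312 CPM with a median of 299 in IRF4 shRNA libraries, against 249 to 269.9 CPM with a median of 263 in controls, with no overlap (0.20 ± 0.03, adjusted p = 7.88e-05). Its paralog BRD3 had 40.4 to 52.5 CPM with a median of 46.7 in IRF4 shRNA libraries and 39.5 to 55.0 CPM with a median of 46.1 in controls, with a mean of 46.4 CPM in both groups, and was not called (0.00 ± 0.09). BRD2 overlaps HLA-DMA on the opposite strand, which was higher by 0.37 on the log2 scale, and BRD3 overlaps BRD3OS (27.8% as many counts), which was higher by 0.26. Their part in the BRD2 and BRD3 values was not tested.

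**Figure D2:**
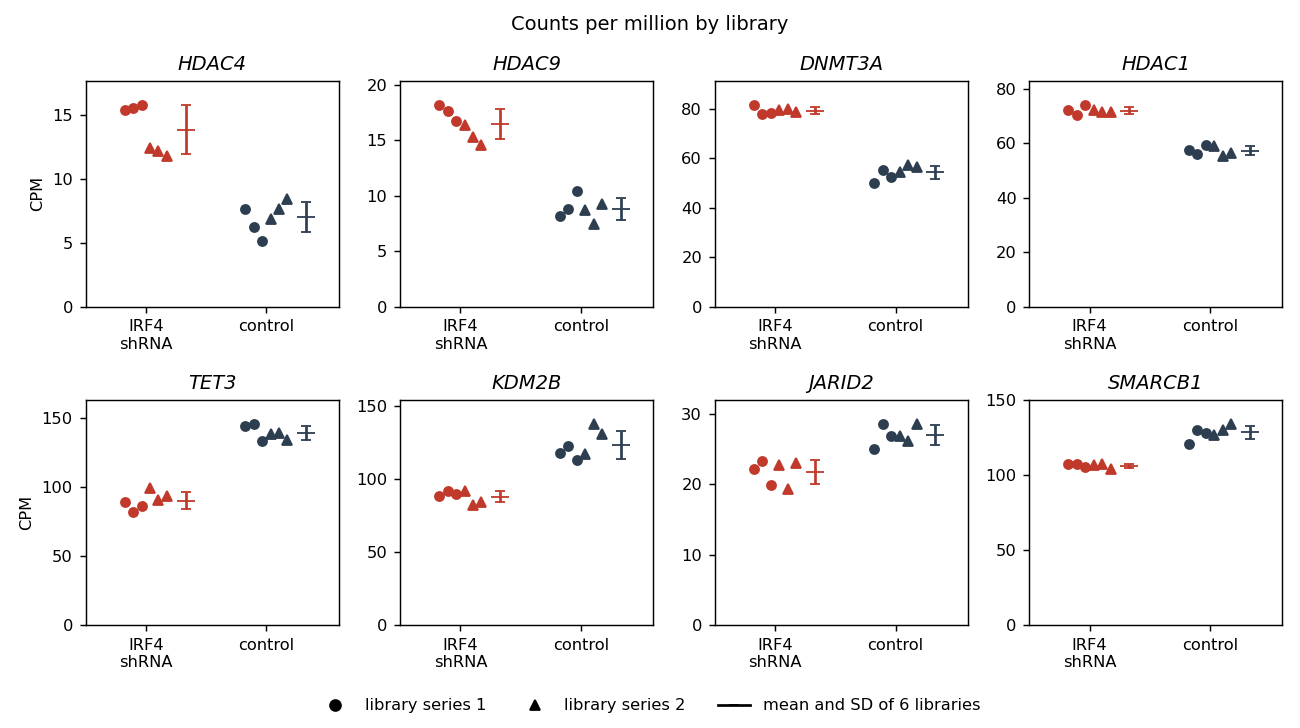
CPM on TMM-scaled library sizes of 8 chromatin genes whose call held in all alternative analyses, IRF4 shRNA libraries on the left and controls on the right of each panel; circles are series 1, triangles series 2, and bars give mean and SD of 6 libraries. In all 8 panels the groups do not overlap, and the IRF4 shRNA libraries of HDAC4 stand at 15.4 to 15.8 CPM in series 1 and at 11.7 to 12.4 CPM in series 2.

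DNA methylation had 2 of 5 genes higher, 1 lower and 2 not called. DNMT3A (chr2:25227855-25342590, minus strand), which sets new DNA methylation and is mutated in blood cancers, had 77.9 to 81.6 CPM with a median of 79.3 in IRF4 shRNA libraries, against 50.1 to 57.2 CPM with a median of 55.0 in controls. The groups lay far apart relative to their spread, with a log2 fold change of 0.55 ± 0.04 and an adjusted p of 1.17e-08 (edgeR). DNMT3B, the other enzyme for new methylation, was low, with 2.33 to 2.88 CPM with a median of 2.75 in IRF4 shRNA libraries and 1.85 to 2.97 CPM with a median of 2.54 in controls, and was not called (0.12 ± 0.12). TET3 (chr2:73986404-74108176, plus strand), a dioxygenase that oxidises methylated cytosine, fell to 82.0 to 99.4 CPM with a median of 89.6 in IRF4 shRNA libraries, against 133 to 146 CPM with a median of 139 in controls. Every IRF4 shRNA library was below every control, and TET3 fell by 0.63 ± 0.04 (SE) on the log2 scale with an adjusted p of 2.20e-08.

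TET2, a tumour suppressor of the same family, was slightly higher, with 161 to 182 CPM with a median of 171 in IRF4 shRNA libraries and 135 to 166 CPM with a median of 160.3 in controls (0.15 ± 0.06, adjusted p = 0.0380, edgeR). Its lowest libraries were control replicates 5 and 6, at 141 and 135 CPM, and without both the log2 fold change was 0.07 with an adjusted p of 0.153. TET1 stayed near 1 CPM in both groups and was not called (0.16 ± 0.18). Among 10 further genes of DNA methylation, 4 were higher and 1 lower. DNMT1, which copies methylation at replication, had 172 to 189.8 CPM with a median of 181 in IRF4 shRNA libraries and 129 to 141 CPM with a median of 134 in controls (0.43 ± 0.04). UHRF1, which recruits DNMT1, had 32.5 to 40.6 CPM with a median of 36.4 in IRF4 shRNA libraries and 19.2 to 27.8 CPM with a median of 23.9 in controls (0.62 ± 0.08). IDH2 was higher at 0.68 ± 0.09, and MBD4, a glycosylase that repairs deaminated methylcytosine, was lower at -0.48 ± 0.04, each with groups that did not overlap.

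Among polycomb genes 2 of 11 were higher, 4 lower and 5 not called, and the catalytic subunits moved apart. EZH2 had 83.2 to 89.9 CPM with a median of 86.0 in IRF4 shRNA libraries and 82.3 to 103 CPM with a median of 95.7 in controls, with a log2 fold change of -0.15 ± 0.05 and an adjusted p of 0.0221 (edgeR). The lowest of all 12 libraries was control replicate 6, and the call was lost without any of IRF4 shRNA replicates 1, 2 and 6 or control replicates 2 and 3 (adjusted p of 0.0501 to 0.0688). EZH1, the subunit of resting cells, was higher in every IRF4 shRNA library, with 70.0 to 75.4 CPM with a median of 73.9, against 61.7 to 68.0 CPM with a median of 64.5 in controls (0.18 ± 0.04, adjusted p = 0.000647).

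Of the core partners, EED, which reads the mark that EZH enzymes write, was slightly higher, with 28.8 to 31.7 CPM with a median of 29.7 in IRF4 shRNA libraries and 26.2 to 29.1 CPM with a median of 27.3 in controls (0.13 ± 0.04, adjusted p = 0.0206, edgeR). The EED call was lost without control replicates 5 and 6 (0.10, adjusted p = 0.0803, edgeR), and the log2 fold change was 0.06 in series 1 and 0.21 in series 2. SUZ12 (-0.02 ± 0.05) and the histone-binding subunits RBBP4 (0.09 ± 0.04) and RBBP7 (0.04 ± 0.03) were not called. RBBP4 had 127 to 137 CPM with a median of 131 in IRF4 shRNA libraries and 115 to 130.03 CPM with a median of 126 in controls, and RBBP7 had 118 to 129.7 CPM with a median of 124 in IRF4 shRNA libraries and 116 to 123 CPM with a median of 121 in controls. RBBP7 overlaps TXLNG on the opposite strand (39.8% as many counts), and RBBP4 and SUZ12 have pseudogene rows with 10.9% and 8.62% as many counts between which reads could be split. JARID2, an accessory subunit that guides the complex to its sites, fell to 19.4 to 23.3 CPM with a median of 22.4 in IRF4 shRNA libraries, against 25.1 to 28.6 CPM with a median of 26.9 in controls, with no overlap (-0.31 ± 0.06, adjusted p = 0.000314). Values of the accessory PHF1 and PHF19, which also guide the complex, ran the other way, at 0.37 ± 0.05 and 0.62 ± 0.07.

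In the second polycomb complex, which carries BMI1 and a CBX reader, BMI1 had 42.0 to 48.5 CPM with a median of 45.3 in IRF4 shRNA libraries and 45.4 to 66.0 CPM with a median of 57.7 in controls (-0.34 ± 0.07, adjusted p = 0.00128, edgeR). The groups touched only through control replicate 6 at 45.4 CPM. CBX8 had 16.9 to 22.0 CPM with a median of 19.3 in IRF4 shRNA libraries and 21.8 to 31.7 CPM with a median of 25.7 in controls (-0.43 ± 0.10, adjusted p = 0.00186), its lowest libraries being the IRF4 shRNA libraries of series 2. CBX7 had 12.6 to 15.2 CPM with a median of 14.3 in IRF4 shRNA libraries and 10.3 to 13.9 CPM with a median of 12.3 in controls and just missed the threshold (0.18 ± 0.07, adjusted p = 0.0562), and CBX2 was not called (0.04 ± 0.12). CBX7 passed without any of IRF4 shRNA replicates 1 and 2 or control replicate 6 (0.0226 to 0.0284). Of 21 further polycomb genes, 20 were tested and 3 were higher and 5 lower, with PHC1 at 0.74 ± 0.05 and PCGF3, a relative of BMI1, at -0.40 ± 0.06 on the log2 scale. EZHIP had 0 counts in all libraries.

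Histone methyltransferases had 2 of 10 genes higher, 3 lower and 5 not called, all by less than 1.5-fold. KMT2D, a tumour suppressor of germinal centre lymphoma, had 345 to 388 CPM with a median of 359.6 in IRF4 shRNA libraries and 329.5 to 349 CPM with a median of 342 in controls (0.10 ± 0.04, adjusted p = 0.0267, edgeR). KMT2C, its paralog, had 234 to 267 CPM with a median of 244 in IRF4 shRNA libraries and 194 to 259 CPM with a median of 238 in controls and was not called (0.09 ± 0.06). KMT2A, the target of leukaemia translocations, was lower, with 80.7 to 89.8 CPM with a median of 83.9 in IRF4 shRNA libraries and 80.5 to 109 CPM with a median of 102 in controls (-0.22 ± 0.07, adjusted p = 0.0126). KMT2B was higher, with 195 to 251 CPM with a median of 220.5 in IRF4 shRNA libraries and 158 to 210.4 CPM with a median of 177 in controls (0.29 ± 0.08, adjusted p = 0.00898). For both, control replicates 5 and 6 were the controls nearest to the IRF4 shRNA libraries, and KMT2B overlaps IGFLR1 on the opposite strand (15.2% as many counts, -0.29). The KMT2D call was lost with the GC trend removed (adjusted p = 0.197) and without control replicates 5 and 6 (0.0583).

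The NSD enzymes, which methylate histones over gene bodies, both fell slightly. NSD1 had 236 to 261 CPM with a median of 244 in IRF4 shRNA libraries and 249 to 289 CPM with a median of 273 in controls (-0.13 ± 0.04, adjusted p = 0.0169, edgeR). NSD2 had 49.1 to 52.01 CPM with a median of 50.4 in IRF4 shRNA libraries and 51.0 to 56.7 CPM with a median of 54.5 in controls (-0.10 ± 0.04, adjusted p = 0.0391). NSD2 lost its call without any 1 of 10 libraries, all but control replicates 1 and 6 (0.0555 to 0.115), and NSD1 without IRF4 shRNA replicate 3 (0.0552). SETD2 (-0.07 ± 0.05), SETD1A (0.11 ± 0.08), SETD1B (-0.09 ± 0.12) and DOT1L (-0.32 ± 0.18) were not called. With the GC trend of each library removed DOT1L was called lower at -0.35 (adjusted p = 0.000520, edgeR) and SETD1B at -0.15 (0.00367). Without control replicates 5 and 6 DOT1L was at -0.02 (adjusted p = 0.929, edgeR) and SETD1B at 0.09 (0.469), neither of them called. SETD1A, a promoter methyltransferase, had 65.7 to 80.8 CPM with a median of 72.3 in IRF4 shRNA libraries and 59.1 to 77.2 CPM with a median of 63.6 in controls. Of 19 further genes, 2 were higher and 4 lower, the clearest being KMT5A, which monomethylates histone H4, with 63.1 to 67.9 CPM with a median of 65.4 in IRF4 shRNA libraries and 85.6 to 92.7 CPM with a median of 90.1 in controls (-0.46 ± 0.03).

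Among the 6 demethylases KDM2B alone was called. KDM2B, which binds unmethylated CpG islands and brings a variant polycomb complex to them, fell to 82.0 to 91.6 CPM with a median of 88.7 in IRF4 shRNA libraries, against 113 to 138 CPM with a median of 119.8 in controls. Its groups did not overlap, and the log2 fold change was -0.49 ± 0.05 with an adjusted p of 1.21e-06 (edgeR). KDM2B overlaps RNF34 on the opposite strand, which was higher by 0.12. KDM6A, a demethylase that removes the mark EZH2 writes, had 47.6 to 50.9 CPM with a median of 48.9 in IRF4 shRNA libraries and 46.5 to 52.9 CPM with a median of 52.2 in controls and was not called (-0.05 ± 0.04). Its paralog KDM6B had 69.2 to 91.9 CPM with a median of 79.0 in IRF4 shRNA libraries and 78.2 to 119 CPM with a median of 95.1 in controls and just missed the threshold (-0.28 ± 0.11, adjusted p = 0.0537, edgeR). With the GC trend of each library removed KDM6B was called lower at -0.32 (adjusted p = 1.07e-06, edgeR). Without control replicates 5 and 6 KDM6B was at -0.12 and not called (adjusted p = 0.297, edgeR). KDM1A (0.03 ± 0.04), KDM5A (0.00 ± 0.05) and KDM5C (0.09 ± 0.04) were not called. KDM5A had 172 to 192 CPM with a median of 184 in IRF4 shRNA libraries and 163 to 198 CPM with a median of 188 in controls, and its paralog KDM5C had 178 to 198 CPM with a median of 190.1 in IRF4 shRNA libraries and 168 to 199.7 CPM with a median of 175 in controls. Outside the 6, KDM1B, which demethylates histones over gene bodies, had 23.1 to 27.6 CPM with a median of 24.8 in IRF4 shRNA libraries and 36.4 to 42.9 CPM with a median of 40.7 in controls (-0.67 ± 0.06). Of 10 further demethylases 1 was higher and 3 were lower.

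SWI/SNF held 3 of 6 genes lower, 0 higher and 3 not called. The core subunit SMARCB1 (chr22:23786931-23838009, plus strand), whose window above carries the IRF element, fell to 104 to 108 CPM with a median of 107 in IRF4 shRNA libraries, against 121 to 134 CPM with a median of 129 in controls. Its groups did not overlap and the IRF4 shRNA libraries were close to each other, with a log2 fold change of -0.27 ± 0.03 and an adjusted p of 2.91e-06 (edgeR). SMARCB1 overlaps DERL3 on the opposite strand, which had 10.6% as many counts and fell by 0.93 on the log2 scale, and the part of DERL3 reads was not tested. ARID1B had 75.0 to 85.6 CPM with a median of 78.9 in IRF4 shRNA libraries and 86.2 to 93.9 CPM with a median of 89.3 in controls, without overlap (-0.18 ± 0.04, adjusted p = 0.00118). ARID2, a subunit of the PBAF form, had 57.0 to 62.8 CPM with a median of 59.4 in IRF4 shRNA libraries and 62.0 to 80.6 CPM with a median of 70.5 in controls (-0.25 ± 0.07, adjusted p = 0.00469), its low controls being replicates 1, 5 and 6.

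ARID1A, the subunit most often mutated in cancer, had 143 to 153 CPM with a median of 143 in IRF4 shRNA libraries and 146 to 157 CPM with a median of 153 in controls and was not called (-0.06 ± 0.03). The ATPases SMARCA4 (0.02 ± 0.08) and SMARCA2 (0.05 ± 0.05) were not called either. SMARCA4 had 88.2 to 104 CPM with a median of 101 in IRF4 shRNA libraries and 82.1 to 116 CPM with a median of 94.8 in controls. SMARCA2 had 263 to 311 CPM with a median of 292 in IRF4 shRNA libraries and 268 to 295 CPM with a median of 279.7 in controls. Of 18 further subunits 3 were higher and 4 lower, with BICRAL at -0.39 ± 0.05 and BCL7B at 0.30 ± 0.05. In the acetylation family, 4 of 24 further genes were higher and 4 lower, and 3 of the higher ones had narrow spreads, NCOA3, a coactivator of nuclear receptors (0.85 ± 0.05), and the NuRD ATPases CHD4 (0.56 ± 0.03) and CHD3 (0.45 ± 0.03). HDAC6 was lower at -0.30 ± 0.04.

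Over all 6 families, 17 of 101 further chromatin genes tested were higher and 21 lower, 37.6% called against 48.2% of all genes. Because several polycomb and DNA methylation genes follow the cell cycle, 15 growth genes were read beside them. Of these, 8 were higher and 5 lower, against 24.2% and 23.9% of all genes. TYMS was at 0.82 ± 0.05 and MCM4 at 0.46 ± 0.04, against MCM5 at -0.36 ± 0.05 and E2F1 at -0.39 ± 0.05. The median log2 fold change of the 15 was 0.20, with a range of -0.39 to 1.10. In 11 the groups did not overlap, against 30.8% of all genes. All 15 had the same direction in both series, against 69.4% of all genes. Their summed level was 1785 to 1926 CPM in IRF4 shRNA libraries and 1777 to 1952 CPM in controls. The sums overlapped, but a sum weights genes by abundance, and single genes moved in both directions.

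Ratios of related genes were compared within each library, where scaling cancels, with exact two-sided permutation tests adjusted over 18 pairs. Of these, 10 passed 0.05 and in 8 the groups did not overlap. A library's GC trend does not cancel where partners differ in GC content. Examples are KMT2B (61.4%) with KMT2A (46.3%) and HDAC9 (44.3%) with HDAC7 (62.3%). With the GC trend removed 11 pairs passed. Per exon length, EZH1 stood at 0.514 to 0.587 of EZH2 in IRF4 shRNA libraries and at 0.425 to 0.485 in controls, a log2 difference of 0.33. TET3 stood at 0.675 to 0.757 of TET2 in IRF4 shRNA libraries and at 1.10 to 1.33 in controls (-0.78). The order turned round per exon length only. In counts TET3 was below TET2 in both groups, with mean log2 ratios of -0.93 in IRF4 shRNA libraries and -0.15 in controls. HDAC5 was 3.87 to 4.52 times HDAC4 in IRF4 shRNA libraries and 6.32 to 7.42 times in controls (-0.71). These 3 ratios had the smallest p the design allows, 0.00216, and an adjusted p of 0.00487.

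The same p values held for the other 5 pairs without overlap. HDAC1 over HDAC2 differed by 0.46, with per-length ratios of 4.99 to 6.03 in IRF4 shRNA libraries and 3.56 to 4.21 in controls. DNMT3A over DNMT3B differed by 0.42, CBX7 over CBX8 by 0.62, HDAC9 over HDAC7 by 0.59 and ARID1A over ARID1B by 0.13. In each of these the groups nearly touched. The lowest per-length ratio of IRF4 shRNA libraries and the highest of controls were 10.7 and 10.5 for DNMT3A over DNMT3B. In the same order they were 0.326 and 0.322 for CBX7 over CBX8, 0.163 and 0.161 for HDAC9 over HDAC7 and 4.93 and 4.89 for ARID1A over ARID1B. KMT2B over KMT2A (0.50, exact adjusted p = 0.0273) and SETD1B over SETD1A (-0.20, exact adjusted p = 0.0260) passed with overlapping groups, and the KMT2B ratio missed the threshold without any of IRF4 shRNA replicates 1, 2 and 3. CREBBP over EP300 (0.10), KMT2D over KMT2C (0.00277), NSD2 over NSD1 (0.03), SMARCA2 over SMARCA4 (0.02), KDM5C over KDM5A (0.09), KDM6B over KDM6A (-0.21), RBBP7 over RBBP4 (-0.05) and BRD2 over BRD3 (0.20) did not pass (exact adjusted p of 0.191 to 0.970). In each of these the sign differed between series 1 and series 2. In that order the differences were 0.30 and -0.10 for CREBBP over EP300 and 0.18 and -0.17 for KMT2D over KMT2C. They were -0.28 and 0.32 for SMARCA2 over SMARCA4, 0.33 and -0.15 for KDM5C over KDM5A and 0.14 and -0.56 for KDM6B over KDM6A. For NSD2 over NSD1 they were 0.11 and -0.05, for RBBP7 over RBBP4 0.03 and -0.12 and for BRD2 over BRD3 -0.06 and 0.46. HDAC1 over HDAC2 and ARID1A over ARID1B had nearly the same difference in each series, 0.46 and 0.46 for HDAC1 over HDAC2 and 0.13 and 0.13 for ARID1A over ARID1B. Other passing pairs were less even, with HDAC9 over HDAC7 at 0.32 in series 1 and 0.87 in series 2. Likewise CBX7 over CBX8 was at 0.37 and 0.87, KMT2B over KMT2A at 0.83 and 0.18 and SETD1B over SETD1A at -0.11 and -0.29. DNMT3A over DNMT3B was at 0.36 and 0.47, EZH1 over EZH2 at 0.35 and 0.30, HDAC5 over HDAC4 at -0.75 and -0.66 and TET3 over TET2 at -0.73 and -0.83.

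**Figure D3:**
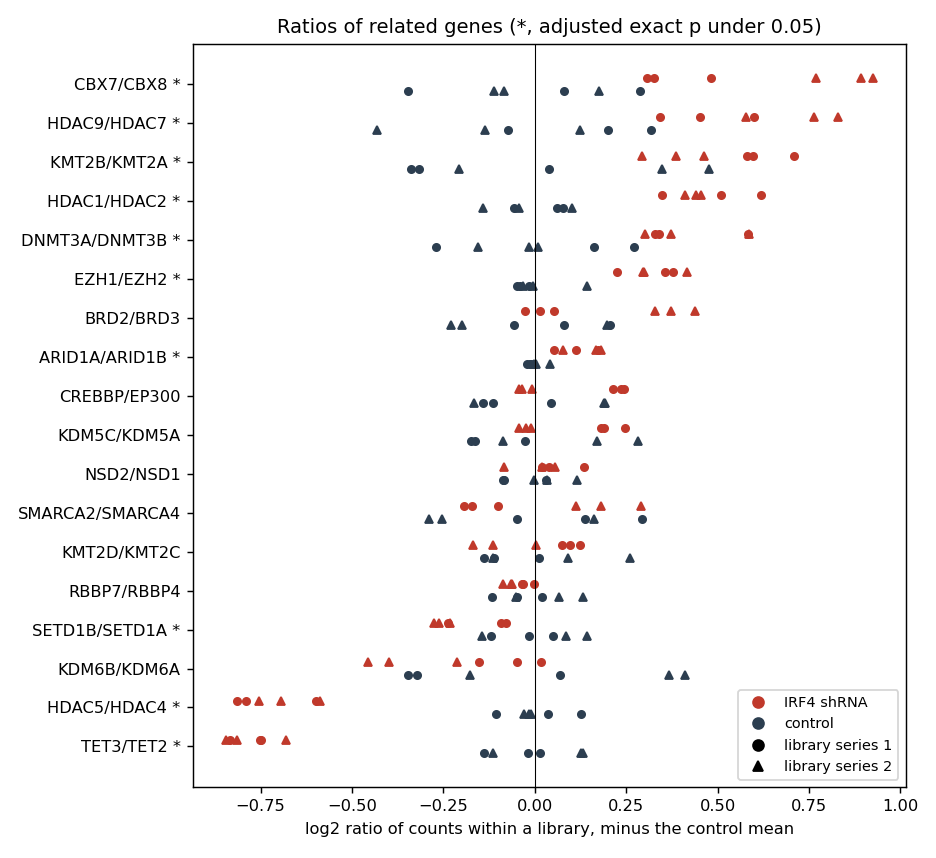
Log2 ratio of counts of 18 pairs of related genes within each library, minus the mean of the controls; red points are IRF4 shRNA libraries, dark points controls, circles series 1 and triangles series 2, and an asterisk marks an exact permutation p under 0.05 after adjustment over 18 pairs. TET3 over TET2 and HDAC5 over HDAC4 lie to the left of all controls by the widest gaps, and CBX7 over CBX8 lies to the right with its series apart.

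Within series 1, 32 of 52 genes (61.5%) were called, 16 higher and 16 lower, against 50.5% of all genes (25.8% higher and 24.6% lower). Within series 2, 18 (34.6%) were called, 10 higher and 8 lower, against 38.1% of all genes (20.2% higher and 17.9% lower). The same direction was seen in both series in 34 of 52 genes (65.4%), against 69.4% of all genes. In both series and in the same direction 9 genes (17.3%) were called, against 26.8% of the 16290 genes tested in both, namely HDAC1, HDAC4, HDAC9, BRD2 and DNMT3A higher and JARID2, KDM2B, TET3 and SMARCB1 lower. For HDAC9 the log2 fold changes were 0.94 in series 1 and 0.88 in series 2. In the same order they were 0.58 and 0.51 for DNMT3A, 0.32 and 0.34 for HDAC1 and 0.15 and 0.25 for BRD2. Among the lower genes they were -0.72 and -0.53 for TET3, -0.40 and -0.57 for KDM2B, -0.31 and -0.32 for JARID2 and -0.25 and -0.29 for SMARCB1. By family, methyltransferases had 4 higher and 3 lower in series 1 and 0 higher and 2 lower in series 2. Polycomb genes had 0 higher and 3 lower in series 1 and 2 higher and 2 lower in series 2. Acetylation had 9 higher and 2 lower in series 1 and 5 higher and 0 lower in series 2, while SWI/SNF had 1 higher and 4 lower in series 1 and 1 higher and 1 lower in series 2.

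**Figure D4:**
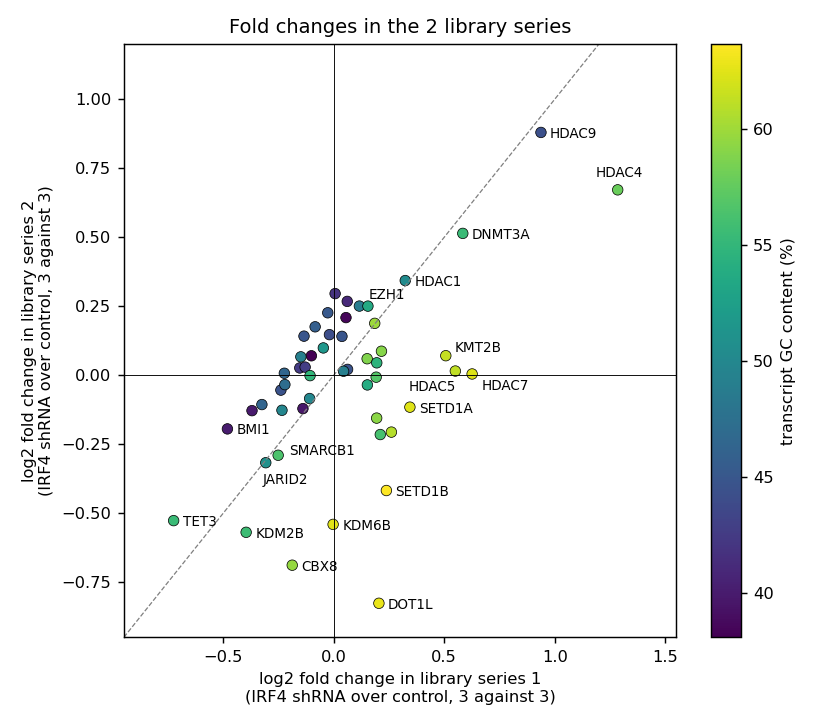
Log2 fold change of the 52 chromatin genes, IRF4 shRNA over control, in series 1 (horizontal) and series 2 (vertical), each from 3 against 3 libraries; the dashed line marks equal values and the colour gives the GC content of the gene's transcripts in percent. HDAC9, DNMT3A, HDAC1, JARID2 and SMARCB1 lie near the dashed line, and the genes below it at the right, such as HDAC7, SETD1B and DOT1L, have GC contents of 62.3, 63.6 and 62.8%.

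Whether the effect differed between series was tested as the interaction of group and series, with positive values where the log2 fold change was higher in series 2. This was called for 14 of 52 genes (26.9%), against 14% of all genes. Of these, 10 were negative with transcript GC contents of 56.2 to 63.6%, and 4 were positive with 41.9 to 46.5%. DOT1L, which methylates histone H3 in its globular part, had the most negative value, -1.05 ± 0.23 (SE), adjusted p = 0.0151 (edgeR). In series 1 it had 64.5, 61.2 and 62.1 CPM in IRF4 shRNA libraries and 65.3, 50.5 and 46.3 CPM in controls, and in series 2 47.0, 41.7 and 44.1 CPM in IRF4 shRNA libraries and 53.5, 92.1 and 91.3 CPM in controls. Control replicates 5 and 6 were the highest of all 12 libraries. DOT1L overlaps PLEKHJ1 and AP3D1 on the opposite strand, which had 224% and 157% as many counts and log2 fold changes of -0.34 and 0.03, neither called, and their part in the DOT1L value was not tested.

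The same libraries stood out in SETD1B, a promoter methyltransferase (-0.67 ± 0.16, adjusted p = 0.0187, edgeR). SETD1B had 71.7, 63.1 and 73.2 CPM in IRF4 shRNA libraries and 63.9, 55.3 and 56.4 CPM in controls of series 1, and 53.9, 52.9 and 54.2 CPM in IRF4 shRNA libraries and 55.3, 78.8 and 82.3 CPM in controls of series 2. It was called higher in series 1 (0.24) and lower in series 2 (-0.42). HDAC7 (-0.64 ± 0.12) had 60.9, 53.4 and 60.5 CPM in IRF4 shRNA libraries and 39.4, 35.1 and 38.3 CPM in controls of series 1, and 42.1, 41.3 and 44.8 CPM in IRF4 shRNA libraries and 36.5, 45.8 and 46.5 CPM in controls of series 2. For HDAC7 the IRF4 shRNA libraries of the series differed from each other as well as the controls.

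HDAC4 was higher in both series but by unequal amounts (-0.63 ± 0.17, adjusted p = 0.0248, edgeR). It had 15.4, 15.6 and 15.8 CPM in IRF4 shRNA libraries and 7.64, 6.24 and 5.13 CPM in controls of series 1, and 12.4, 12.2 and 11.7 CPM in IRF4 shRNA libraries and 6.87, 7.66 and 8.45 CPM in controls of series 2. The remaining negative values were KDM6B -0.55 ± 0.17, HDAC5 -0.55 ± 0.14, CBX8 -0.52 ± 0.14, SETD1A -0.48 ± 0.09, KMT2B -0.45 ± 0.11 and BRD3 -0.44 ± 0.13, with adjusted p of 0.0105 to 0.0443. The positive ones were TET2 0.27 ± 0.08, KDM5A 0.26 ± 0.07, SMARCA2 0.24 ± 0.06 and NCOR1 0.21 ± 0.07, with adjusted p of 0.0220 to 0.0479. With the GC trend of each library removed, 3 genes were called for the interaction, DOT1L (-0.42), TET3 (0.27) and SMARCA2 (0.16), and 0 without control replicates 5 and 6 (edgeR, with 12 at an unadjusted p under 0.05, and 1 called by DESeq2). That leaves 1 control in series 2, which is assumed to vary like the other libraries. Some values stayed sizeable without a call. With the GC trend removed HDAC4 was at -0.44 (adjusted p = 0.0541, edgeR) and BRD3 at -0.32 (0.0586), while HDAC7 was at -0.08 (0.646). Without control replicates 5 and 6 DOT1L was at -0.48 (0.153), HDAC4 at -0.47 (0.267) and HDAC7 at -0.40 (0.0838). Leaving out any 1 library gave 2 to 29 genes, the fewest without IRF4 shRNA replicate 5 or 6 and the most without control replicate 4. Of the 27 genes called for the difference over all libraries, 25 kept their call with the GC trend removed, KMT2D and HDAC2 lost it, and 6 more gained one, DOT1L, SETD1B and KDM6B lower and RBBP4, KDM5C and KAT6A higher. Without control replicates 5 and 6 the call was kept by 23 and lost by EED, KMT2D, HDAC2 and TET2. In that setting 7 more gained one, SUZ12, SETD2, KDM6A and EP300 lower and CBX7, SETD1A and KDM5C higher. Of the 6 genes that gained a call with the GC trend removed, only KDM5C was also called in that setting. Over the transcriptome 8667 of 16745 genes tested were called there. The numbers were 7918 of 16437 over all libraries and 8996 of 16437 with the GC trend removed.

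**Figure D5:**
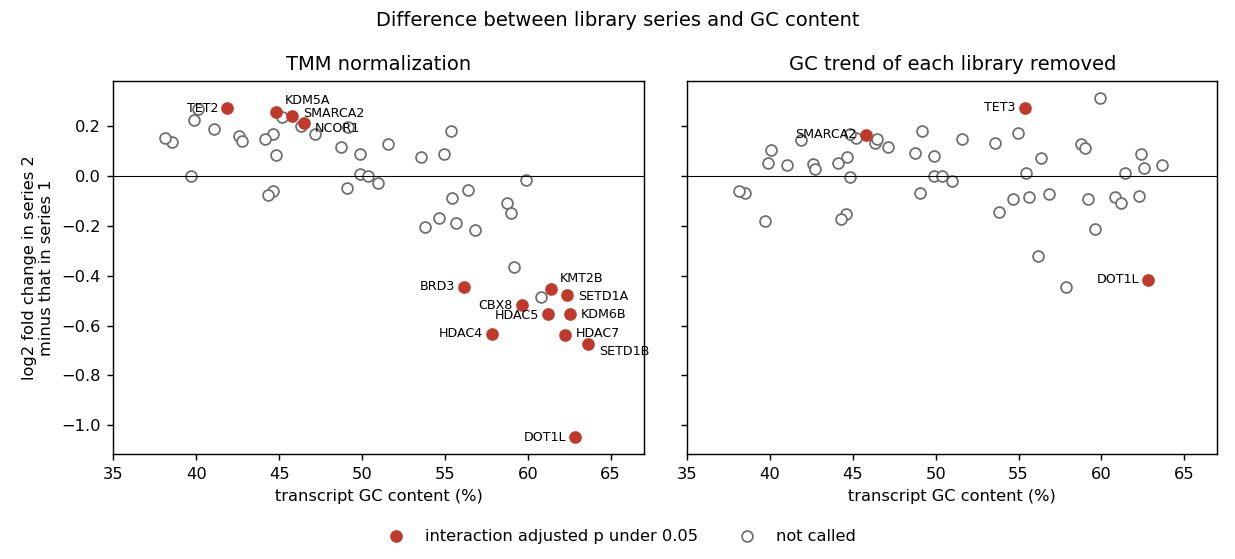
Difference of the log2 fold change between series (series 2 minus series 1) for the 52 chromatin genes against transcript GC content in percent, with TMM normalization on the left and with each library's GC trend removed on the right; filled points have an interaction adjusted p under 0.05. On the left 14 genes are filled and values fall toward high GC, and on the right 3 are filled and the points spread around 0.

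Across the 27 alternative analyses the call of 8 genes held in every case, HDAC1, HDAC4, HDAC9 and DNMT3A higher and JARID2, KDM2B, TET3 and SMARCB1 lower. Of the other 19 called genes, 9 lost their call when some single library was left out. EZH2, NSD1, NSD2, HDAC2 and NCOR1 are described above. KMT2D lost its call without control replicate 2 or 5 (edgeR adjusted p = 0.0593 and 0.0553), and HDAC7 without IRF4 shRNA replicate 3 or control replicate 2 (0.0504 and 0.0511). HDAC5 lost it without any of IRF4 shRNA replicates 1, 2 and 3 or control replicates 2, 3 and 4 (0.0532 to 0.0666), and TET2 without control replicate 1, 5 or 6 (0.0514 to 0.0859). Leaving out a library gave a call to CBX7, as above, and to RBBP4 without IRF4 shRNA replicate 2, 4 or 6 (0.0357 to 0.0460). It also gave a call to KDM5C without IRF4 shRNA replicate 6 or control replicate 6 (0.0464 and 0.0102) and to KDM6B without control replicate 2, 3 or 4 (0.0200 to 0.0442).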

How the data were processed

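Poly(A) RNA of 12 TMD8 libraries was sequenced with a stranded TruSeq kit in pairs of 100 bp reads, per the labels' protocols. A label for the cell line counts upward from TMD8 over the samples while every title reads TMD8, so all were taken as TMD8. STAR, HTSeq and hg38 are named in the submitters' processing notes, and versions, annotation release and strand setting are not given in the sources used here. The deposited table holds expected (estimated) counts per gene that the authors did not normalize, and 66.6% of the values are whole at a tolerance of 1e-06.

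Estimated counts as deposited were rounded and tested with edgeR 4.0.16 in R 4.3.3 (quasi-likelihood, TMM, filterByExpr with a minimum count of 10, 16437 genes, Benjamini-Hochberg adjusted p under 0.05), with DESeq2 1.42.0 as an alternative. SE is the log2 fold change over the square root of F. Levels are CPM on TMM-scaled sizes, and per-kilobase levels and GC content use GENCODE 29. A GC or length trend was removed as a lowess offset per library (span 0.3). Tested on simulated counts of 15999 genes, the comparison found 65% of the genes set to 0.5 on the log2 scale and 90% of those set to 1, and 4.91% of its calls were false. Fewer of those set to 0.5 were found within series 1 (42%, 9.68% of calls false), within series 2 (48%, 7.81%) and by the interaction (31%, 7.21%). The simulated counts took their spread from a fit that included series, held no GC trend per library and had few changed genes. The data differ in this, so these rates may not hold for them. No library repeated another within sampling noise (chi-square over degrees of freedom 2.73 to 31.9), and each counted as 1 sample. Values by group were given for the first 24 called genes, those with an interaction and members of pairs, which include all 27 called genes, and up to 4 further genes per family were named by smallest p. The 52 genes and all lists, pairs and motifs were chosen with earlier results of these data known.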

Additional observations from a re-analysis of the deposited data

Results flagged for a closer look

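KDM5C, a demethylase encoded on the X chromosome, had 199.68 CPM in control replicate 6, far above the other controls at 168 to 178 CPM. KAT2A had 96.2438 CPM in IRF4 shRNA replicate 4, far below the other IRF4 shRNA libraries at 105 to 111 CPM. These were 2 of 104 groups of 6 values in which the highest or lowest value stood off by more than Dixon's critical gap, where chance at 1 in 20 gives 5.2.

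The log2 fold change differed between series 2 and series 1 for 14 genes by the test of the interaction. It was lower in series 2 by -1.04784 for DOT1L, -0.672874 for SETD1B, -0.638446 for HDAC7, -0.632454 for HDAC4, -0.554984 for KDM6B, -0.553814 for HDAC5, -0.518634 for CBX8, -0.477478 for SETD1A, -0.453442 for KMT2B and -0.443582 for BRD3. It was higher in series 2 by 0.271588 for TET2, 0.258172 for KDM5A, 0.242183 for SMARCA2 and 0.212741 for NCOR1. The median GC content of the 52 genes was 50.7%, above that of the 4 positive genes and below that of the 10 negative ones.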

How the results depend on the processing

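Members called higher numbered 13, against 21 with library size alone and 4 with counts summed per group and series, and those called lower 14, against 8 with library size alone, 8 in series 2 alone and 4 with summed counts. Leaving out 1 library gave 10 to 15 higher and 10 to 14 lower. With a replicate block 10 were higher and 12 lower. Same-numbered libraries did not deviate together (correlations of 0.0187, -0.24, -0.33, 0.20, -0.35 and -0.37, and 0 of 6 IRF4 shRNA libraries correlated best with the control of their number). These deviations are from group means over both series and carry the GC trends. They therefore cannot show whether same-numbered libraries were prepared together. The main test took no pairs. The interaction was called for 14 genes, for 3 with the GC trend removed, 3 with the GC trend within groups removed and 0 without control replicates 5 and 6, 18 with DESeq2, and 2 to 29 with 1 library left out. In series 2 the genes called higher numbered 10, against 16 with library size alone and 16 with the GC trend removed, and those called lower 8, against 12 with the GC trend removed; in series 1 those called lower numbered 16, against 11 with library size alone. By family, library size alone gave 9 higher and 0 lower in acetylation, 3 and 0 in methyltransferases, 5 and 3 in polycomb, 2 and 1 in demethylases, 2 and 1 in DNA methylation and 0 and 3 in SWI/SNF. Over the transcriptome 8225 of 16437 genes were called in that setting, 63.9% of them higher. Over the 52 genes, called or not, the sign differed from that over all libraries in 6 in series 1 alone and in 12 in series 2 alone. Where either value was called, it turned for SETD1B in series 1 alone (0.24) and NCOR1 in series 2 alone (0.00678), and, with the GC trend removed and with it removed within groups, for the interactions of KMT2B (0.0112 and 0.00588), SETD1A (0.0895 and 0.0821), SETD1B (0.0444 and 0.0329) and KDM6B (0.0305 and 0.0230). The cause was not tested. The GC trend within groups, the analyses without control replicates 5 and 6 for the interaction and the alternatives within a series were chosen after seeing the data. At 3 against 3 libraries an exact test of a ratio cannot go below 0.10, so ratios within a series carry no test.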
